A study of Mus musculus with 6 samples.

Results

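The proteasome genes described here are the genes that carry a Psma, Psmb, Psmc or Psmd symbol, in cultured mouse neural stem and progenitor cells. These genes include Psmb11, known from the proteasome of thymic epithelial cells and counted here in the beta ring. They were chosen by symbol, without the immunoproteasome genes Psmb8, Psmb9 and Psmb10, and with a mean expected count of at least 10 over 6 libraries. Of 36 such symbols in the annotation 35 were kept, among 17254 genes listed in the tables. Of these 35, 32 encode subunits and 3 (Psmd5, Psmd9 and Psmd10) encode assembly chaperones of the base, which share the Psmd symbol but are not part of the finished particle. All 35 passed the filter on low counts, which left 12813 genes for testing.

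The proteasome is the protease that degrades proteins tagged with ubiquitin, and it removes damaged, misfolded and short-lived regulatory proteins in all cells. Its core is a barrel of alpha rings, which gate the entry, around beta rings, which hold the cutting sites. A regulatory particle caps the core. Its base, with a ring of ATPases (the Psmc genes), unfolds the substrate, and its lid, built around the ubiquitin-cleaving enzyme Psmd14, removes the ubiquitin chain. Subunit genes are known to rise together when proteasome activity is blocked, through the factor Nfe2l1, and Nfe2l2 (NRF2) raises some of them under oxidative stress in several cell types.

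The series set the intracellular redox state of these cells to different levels over 48 h and measured RNA. The groups were cells given PQ, cells given NAC and control cells, with 2 libraries each. The labels do not spell out PQ or NAC and give no dose, strain, age or sex. EGF, bFGF and N2 medium were common to all groups. Whether the 2 libraries of each group are separate cultures is not said, so the p-values cover only how these libraries vary, which may be technical variation. PQ against control and NAC against control share the same 2 control libraries.

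Summed expected counts were 9680436 to 10698241 per library, and CPM below is an expected count scaled to the size of its library with TMM factors. Markers of the labelled cells were present, with 7 of 8 neural stem and radial glia genes tested, at 6550 to 6827 CPM in sum in PQ, 4437 to 4511 in NAC and 6162 to 6252 in control. Astrocyte genes summed to 18.5 to 19.5 CPM in PQ, 30.6 to 31.0 in NAC and 13.7 to 14.6 in control. Neuronal genes summed to 183 to 194 CPM in PQ, 320 to 361 in NAC and 199 to 209 in control, and the oligodendrocyte lineage list to 727 to 821, 932 to 953 and 872 to 889. Single genes made up most of the first and the third of these sums, and the genes of a list did not move together. Without Vim, which had 4871 and 4594 CPM in PQ and 2467 and 2489 CPM in NAC, against 4306 and 4058 CPM in control, the stem cell genes summed to 1956 and 1956 CPM in PQ and 2045 and 1948 in NAC, against 1946 and 2104 in control. In edgeR, Nes was higher in PQ and lower in NAC, Sox2 was lower in both, Slc1a3 was lower in PQ and higher in NAC, and Nr2e1 was lower in PQ, each against control. The neuronal sum was nearly all Map2, with 191.3 and 179.8 CPM in PQ and 359.0 and 318.0 CPM in NAC, against 193.6 and 203.7 CPM in control, while Tubb3 was lower in both PQ and NAC than in control and never above 4.26 CPM. Of the astrocyte genes Gfap and Aqp4 were higher in NAC and Aldh1l1 in PQ, each against control. Lists for microglia and blood, endothelium and fibroblasts stayed at or under 5.04 CPM in sum in every library, and Rbfox3, Mog, Tyrobp and Cldn5 were listed in no table. The part of these differences in the results below was not tested. In bulk cultures fewer cells of a type and less RNA per cell cannot be told apart.

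Promoters are shown first, from RefSeq on build GRCm38.p6, for the genes with a match to the first motif below and for Psmd5 and Psmd1. Other genes that passed a test are not shown. Windows of 250 bases before to 50 after the start were found for 29 of the 35 genes, in 31 windows. The core of the antioxidant response element, TGACNNNGC, which NRF2 and its relatives bind with small Maf partners, was searched on both strands. It was in 5 of the 31 windows (16.1%), against 12.4% of all 32851 promoters, and the 5 genes were Psmb5, Psmb6, Psmd9, Psmc6 and Psmd12. CCAAT, searched the same way, was in 12 windows (38.7%), against 37.4% of all promoters. Psmb5 encodes the chymotrypsin-like subunit of the core, and its match lies 47 to 39 bases before the start. The 250 bases before its start, on the minus strand at chr14:54617996-54618245, are given with the match in capitals.
Psmb5: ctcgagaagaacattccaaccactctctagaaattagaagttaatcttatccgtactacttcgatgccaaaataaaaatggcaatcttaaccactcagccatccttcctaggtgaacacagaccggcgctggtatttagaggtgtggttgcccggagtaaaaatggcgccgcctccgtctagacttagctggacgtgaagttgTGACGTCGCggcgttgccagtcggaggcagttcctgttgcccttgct
The other matches are shown in capitals with up to 10 bases on each side, read along the gene (Psmc6 and Psmd12 match on the opposite strand). Psmb6 is at chr11:70525338-70525366, Psmd9 at chr5:123228149-123228177, Psmc6 at chr14:45329587-45329615 and Psmd12 at chr11:107479278-107479299, all on the plus strand.
Psmb6: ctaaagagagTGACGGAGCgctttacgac
Psmd9: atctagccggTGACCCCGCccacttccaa
Psmc6: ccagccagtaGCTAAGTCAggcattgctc
Psmd12: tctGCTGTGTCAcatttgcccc

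Psmd5 and Psmd1, the 2 genes that rose with PQ, had neither TGACNNNGC nor CCAAT in their windows. The Psmd5 sequence holds the palindrome TCTCGCGAGA in 2 copies, at 72 to 63 and at 26 to 17 bases before the start. That motif was searched after the sequence was seen, does not overlap the other motifs here, and is in 0.466% of all promoters. It was in 1 of the 31 windows, that of Psmd5, from which the motif was taken, so this match was fixed in advance. Both are shown over the 250 bases before the start, Psmd5 on the minus strand at chr2:34870963-34871212 with the palindromes in capitals, and Psmd1 on the plus strand at chr1:86064369-86064618. A match is a string of letters and says nothing of binding in these cells.
Psmd5: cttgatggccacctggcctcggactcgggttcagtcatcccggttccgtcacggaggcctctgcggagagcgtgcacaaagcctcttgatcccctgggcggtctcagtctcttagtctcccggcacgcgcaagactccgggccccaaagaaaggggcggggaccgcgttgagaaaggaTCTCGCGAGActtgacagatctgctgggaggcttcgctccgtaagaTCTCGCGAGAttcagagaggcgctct
Psmd1: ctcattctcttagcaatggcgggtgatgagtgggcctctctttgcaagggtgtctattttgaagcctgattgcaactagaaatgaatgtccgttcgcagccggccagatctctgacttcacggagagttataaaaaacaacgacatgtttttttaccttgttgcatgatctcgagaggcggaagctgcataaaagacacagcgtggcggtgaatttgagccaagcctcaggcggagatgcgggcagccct

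The levels of most proteasome genes were high, and those of the subunits other than Psmb11 lay within a narrow range. The median over the 35 genes of the mean deposited FPKM, which is scaled to transcript length, was 94.7, against 11.1 for the 12813 genes tested, and 34 of the 35 lay above that median. Psmb1, a beta subunit without a cutting site, was highest at 205 FPKM (186 to 218 over the 6 libraries), followed by the alpha subunit Psma4 at 185 (155 to 208). The alpha ring had the highest class median at 140 FPKM, followed by the beta ring at 100.4, the base at 94.0 and the lid at 86.6. Of the 34 neighbouring pairs in the order, 29 overlapped in their ranges over 6 libraries. The order within most of it is therefore not resolved beyond that spread.

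Lower levels set a few genes apart. Psmb5 had 42.0 FPKM (37.3 to 45.9), below every other subunit gene but Psmb11 and clear of both neighbours in the order. The other catalytic subunits were higher, with Psmb7 (trypsin-like) at 153 FPKM and Psmb6 (caspase-like) at 102. The chaperones followed below Psmb5, with Psmd5 at 27.1, Psmd10 at 14.8 and Psmd9 at 11.7 FPKM. Psmb11, the beta subunit known from the proteasome of thymic epithelial cells, was lowest at 1.21 FPKM (0.69 to 1.68). Without Psmb11 and the chaperones, the highest mean level was 4.87 times the lowest. Psmb5 and Psmb11 lie next to each other on chromosome 14, and their expected counts were not whole numbers in 5 and 6 libraries, as were those of Psmd9 in 6 and of Psmb7 in 1. Such counts hold reads divided between loci, which were not traced here, so the levels of these genes are uncertain to that extent.

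**Figure D1:**
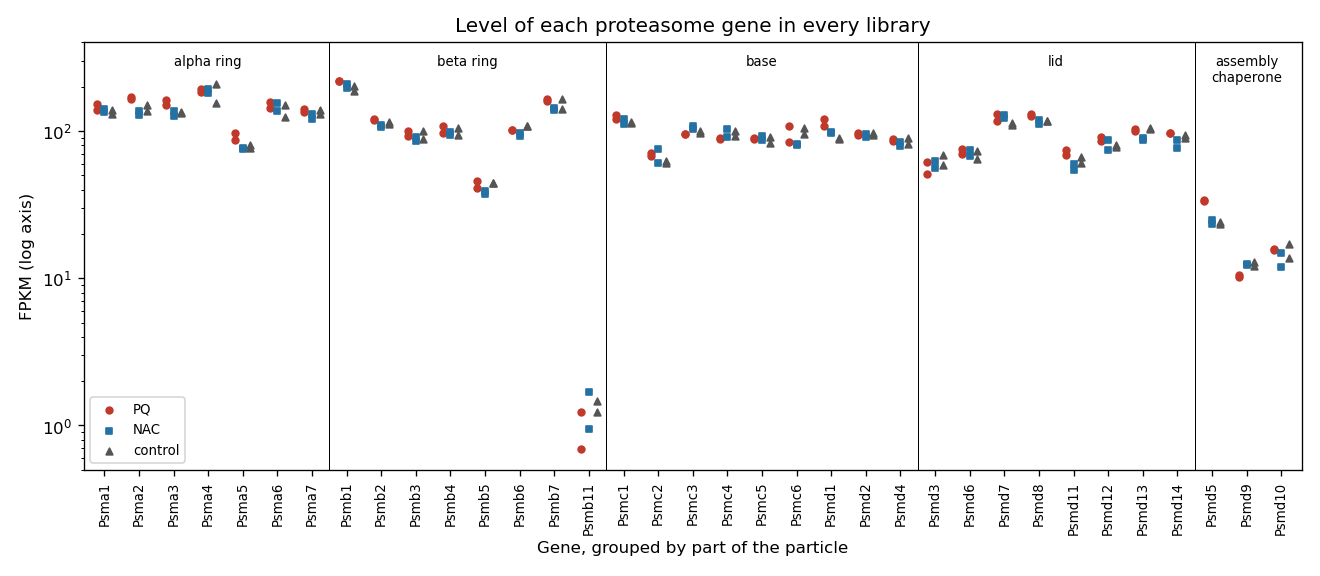
Deposited FPKM (log axis) of the 35 proteasome genes, by class, with 1 point per library (PQ, NAC and control, 2 each). Most genes lie near the median of 94.7 FPKM, and Psmb11 lies lowest at 1.21 FPKM.

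PQ cultures had slightly more proteasome RNA in sum than control cultures. The CPM of the 35 genes summed to 4879.7 and 4811.6 in PQ, against 4532.9 and 4727.5 in control, a difference of the means of 4.65%. PQ libraries were above both control libraries for the sum of the base (1631 and 1609 CPM, against 1532 and 1578), of the lid (1179 and 1200.0, against 1160.4 and 1154) and of the chaperones (121 and 116, against 101 and 109.7). Without Psmd1 the base overlapped between the groups, at 1273 and 1220 CPM in PQ, against 1239 and 1276 CPM in control. Without Psmd5 the remaining chaperones lay below control, at 50.2 and 48.8 CPM in PQ, against 52.2 and 59.2 CPM in control. The beta ring summed to 781 CPM in each PQ library, against 751 and 777 in control, above both. For the alpha ring the groups overlapped, at 1168 and 1105 CPM in PQ, against 988 and 1109 in control. These sums carry no test.

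In PQ against control 2 genes passed the test, Psmd5 and Psmd1, both higher, and no proteasome gene was lower. A gene passed at an adjusted p under 0.05 in edgeR's quasi-likelihood test over all genes. The 2 of 35 stand beside a background of 9.07% of all tested genes called higher and 8.8% called lower, and 4 of the 35 (11.4%) had an unadjusted p under 0.05 (Psma3, Psmd1 and Psmd5 higher, Psmd9 lower), beside 30.6% of all tested genes. The share of members called was thus below the background. DESeq2 and limma on FPKM also called 2 higher and 0 lower. The median log2 fold change over the 35 genes was 0.04, against -0.0024 over all genes tested. For 32 of the 35 genes (91.4%) the estimate was under 1.25-fold either way, which held for 68.8% of all tested genes. The approximate 95% interval lay within 1.5-fold of no change for 33 of the 35 genes (all but Psmd5 and Psmb11) and for 7629 of the 12813 genes tested. Groups did not overlap, with PQ above, for 13 of the 35 genes, beside 29.0% of all genes, and with PQ below for 6, beside 28.2%.

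Psmd5, which holds ATPase intermediates during assembly of the base, is at chr2:34852087-34870965. It had 71.1 and 67.7 CPM in PQ, against 49.0 and 50.5 CPM in control. Both PQ libraries lay well above both control libraries. Its rise was 1.39-fold (log2 fold change 0.48 ± 0.10 SE, edgeR adjusted p = 0.00326). That call held in all 14 alternative analyses, with an adjusted p from 0.000599 to 0.0395.

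Psmd1, the large scaffold subunit of the base that docks the ubiquitin receptor Adrm1, is at chr1:86064619-86139295. It had 358 and 389 CPM in PQ, against 293 and 302 CPM in control. The PQ libraries were again both higher, by 1.26-fold (log2 fold change 0.33 ± 0.09 SE, edgeR adjusted p = 0.0159). Over the 14 alternatives the adjusted p ran from 0.00546 to 0.206. It missed the threshold without PQ replicate 2 (0.206) and without control replicate 1 (0.0581), which left Psmd5 as the 1 gene called.

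The core did not pass the test in any member with PQ. The alpha ring, which opens and closes the entry to the barrel, had a median log2 fold change of 0.10, from -0.0009 for Psma7 to 0.20 for Psma3. Psma7 had 122.9 and 113.5 CPM in PQ, against 114.2 and 122.3 CPM in control, with overlap. Psma3 had 217 and 227 CPM in PQ, against 191 and 194 CPM in control (edgeR adjusted p = 0.144). Psma5 had 117 and 103 CPM in PQ, against 97.2 and 93.8 CPM in control (edgeR adjusted p = 0.176), and for both genes the groups did not overlap. The beta ring had a median of 0.0080, from -0.49 for Psmb11 to 0.14 for Psmb1. Psmb1 had 223 and 219 CPM in PQ, against 191 and 209.6 CPM in control (edgeR adjusted p = 0.336). Psmb11 had 3.02 and 5.23 CPM in PQ, against 5.36 and 6.34 CPM in control, both below (edgeR adjusted p = 0.291).

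None of the 3 catalytic subunits passed the test with PQ. Psmb5 had 34.9 and 38.4 CPM in PQ, against 38.2 and 38.5 CPM in control, so the groups overlapped. Its log2 fold change was -0.07 ± 0.12 SE, with a 95% interval of -0.31 to 0.18. Psmb6 had 104.7 and 101.4 CPM in PQ, both below the 111.4 and 112.9 CPM of control, with an interval of -0.32 to 0.07. Psmb7 had 158.0 and 150.4 CPM in PQ, within the 136.1 to 161.2 CPM of control, with an interval of -0.16 to 0.26.

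In the regulatory particle, the other base subunits showed no call with PQ beside Psmd1. The class median was -0.0029 over 9 genes, and the lowest was Psmc4, an ATPase, with 126.4 and 126.8 CPM in PQ, against 132.8 and 144.8 CPM in control (log2 fold change -0.13 ± 0.10 SE). Psmc2, another ATPase, had 121.9 and 123.4 CPM in PQ, both above the 108.4 and 113.0 CPM of control (edgeR adjusted p = 0.388). The lid had a median of 0.07 over 8 genes, from -0.21 for Psmd3 to 0.14 for Psmd11, both lid subunits of the PCI family. Psmd11 had 120.8 and 126.4 CPM in PQ, against 116.8 and 107.3 CPM in control, without overlap. Psmd3 had 112 and 131 CPM in PQ, against 151 and 130.2 CPM in control, with overlap. Psmd14 had 151 and 149 CPM in PQ, against 141 and 149.6 CPM in control, also with overlap.

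The chaperones did not move together with PQ. Beside the rise of Psmd5, Psmd10 (gankyrin) had 22.7 and 22.4 CPM in PQ, inside the 20.01 to 24.9 CPM of control. Psmd9 had 27.5 and 26.3 CPM in PQ, both below the 32.1 and 34.3 CPM of control. Its log2 fold change was -0.30 ± 0.12 SE (unadjusted p = 0.0222 and adjusted p = 0.0935 in edgeR).

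**Figure D2:**
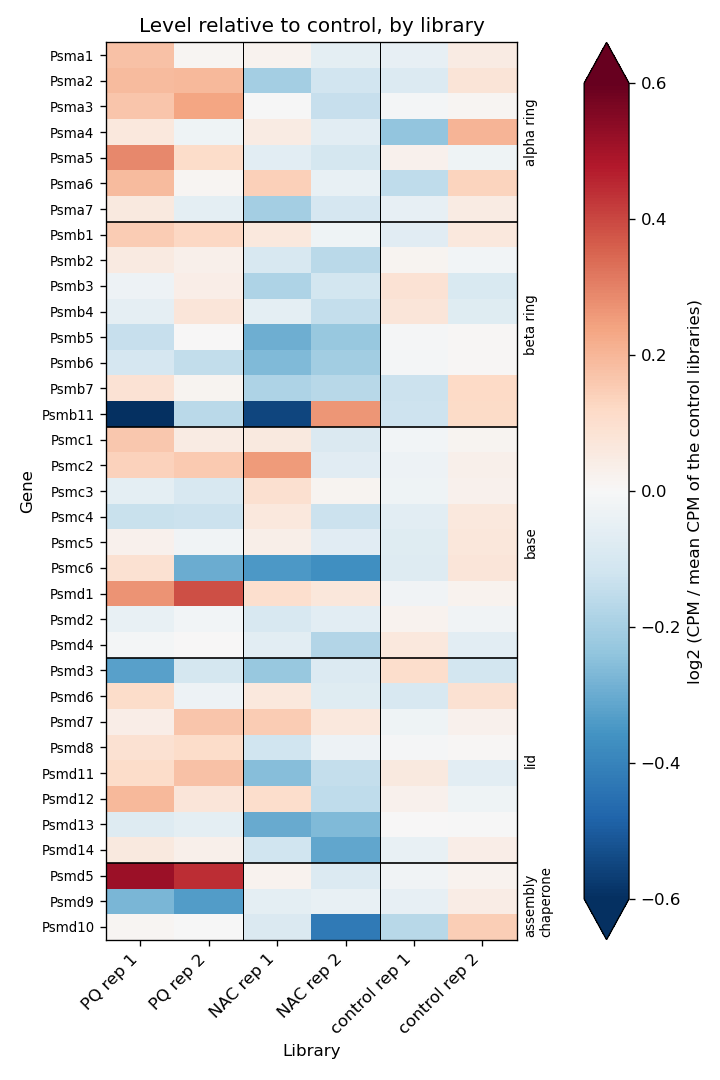
CPM of each proteasome gene in each library (columns PQ, NAC, control), drawn as log2 of the ratio to that gene's mean CPM in the control libraries, by class, with colours ending at 0.6 either way. Psmd5 stands out with both PQ libraries above the other 4, at 71.1 and 67.7 CPM.

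NAC cultures had slightly less proteasome RNA in sum than control cultures. The 35 genes summed to 4511.4 and 4328.7 CPM in NAC, against 4532.9 and 4727.5 CPM in control, a difference of the means of -4.54%. The beta ring (709.8 and 700.2 CPM in NAC, against 751.0 and 777 in control) and the lid (1096 and 1069 CPM in NAC, against 1160.4 and 1154 in control) lay below both control libraries. Alpha ring, base and chaperone sums overlapped between the groups. Vim was lower and Map2, Gfap and Aqp4 were higher in NAC than in control in edgeR (values and sums above), and the part of other cell types in these sums was not tested.

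In NAC against control 2 genes passed the test, Psmc6 and Psmd13, both lower, and no proteasome gene was higher. Of all tested genes 9.26% were called lower and 8.65% higher in edgeR, and 5 of the 35 (14.3%) had an unadjusted p under 0.05, all of them lower, beside 30.8% of all tested genes. The share of members called lower was again under that background. DESeq2 called 2 lower and limma on FPKM 0, and both called 0 higher. The median log2 fold change was -0.08 over the 35 genes, against -0.0023 over all genes, with 29 estimates below 0 and 6 above. Estimates were under 1.25-fold for 34 of the 35 genes (97.1%), which held for 68.8% of all tested genes. Intervals lay within 1.5-fold for 33 (all but Psmc6 and Psmb11). NAC libraries were both below both control libraries for 14 of the 35 genes, beside 28.3% of all genes, and above for 2, beside 28.3%. Scaling to library size alone moved the median to -0.03 and left 0 members called.

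Psmc6, an ATPase of the base ring at chr14:45329823-45349074, had 124.7 and 122.4 CPM in NAC, against 149.7 and 166.5 CPM in control. The groups did not overlap, and the gene was 1.28-fold lower in NAC (log2 fold change -0.36 ± 0.12 SE, edgeR adjusted p = 0.0393). Over the 14 alternatives its adjusted p ran from 0.0069 to 0.171. The call was lost without NAC replicate 1 (0.128), NAC replicate 2 (0.158) or control replicate 2 (0.171), with scaling to library size (0.0613) and with limma on FPKM (0.108 and 0.109).

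Psmd13, a lid subunit at chr7:140882394-140898642, had 133.7 and 137.1 CPM in NAC, against 165.1 and 164.8 CPM in control. Replicates differed by little, and the gene was 1.22-fold lower in NAC (log2 fold change -0.28 ± 0.09 SE, edgeR adjusted p = 0.036). Of its exonic bases 10.1% overlap Sirt3 on the opposite strand, and whether counting used the strand is not given in the sources used here. The adjusted p ran from 0.0352 to 0.184 over the 14 alternatives and was above the threshold without any 1 of the 6 libraries (0.0645 to 0.184), with scaling to library size (0.0762), with limma on FPKM (0.0693 and 0.0711) and with only the groups compared (0.0643).

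The catalytic subunits were lower in NAC than in control in every library, yet none passed the test. Psmb5 had 31.3 and 32.8 CPM in NAC, against 38.2 and 38.5 CPM in control (log2 fold change -0.26 ± 0.12 SE, edgeR adjusted p = 0.135). Psmb6 had 93.52 and 97.04 CPM in NAC, against 111.4 and 112.9 CPM in control (-0.24 ± 0.09 SE, edgeR adjusted p = 0.0918). Psmb7 had 130.8 and 132.3 CPM in NAC, against 136.1 and 161.2 CPM in control (edgeR adjusted p = 0.25). Psmb7 shares 11.8% of its exonic bases with Nek6 on the opposite strand. The beta ring as a class had a median of -0.14, from -0.26 for Psmb5 to 0.02 for Psmb1. Psmb1 had 209.8 and 196.8 CPM in NAC, against 191.4 and 209.6 CPM in control, with overlap. Psmb11, with 3.99 and 7.03 CPM in NAC, against 5.36 and 6.34 CPM in control, had the widest spread of the members between the NAC replicates.

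No other member passed the test with NAC. In the alpha ring (median -0.07, and 0.00103 without NAC replicate 2) the estimates ran from -0.16 for Psma2, with 119.2 and 127.0 CPM in NAC, against 130.0 and 145.0 CPM in control, to 0.05 for Psma6, with 150.2 and 131.8 CPM in NAC, against 122.4 and 149.3 CPM in control. In the base (median -0.02) Psmc2 was highest, at 132.1 and 105.6 CPM in NAC, on either side of the 108.4 and 113.0 CPM of control. The lid had a median of -0.11, and Psmd7, the partner of Psmd14, had its highest estimate at 0.11, with 203.9 and 191.6 CPM in NAC, against 180.3 and 186.9 CPM in control. Psmd14, the deubiquitinase, had 133.7 and 117.1 CPM in NAC, against 141.1 and 149.6 CPM in control (-0.21 ± 0.10 SE, edgeR adjusted p = 0.147). Psmd5 had 50.5 and 46.9 CPM in NAC, about the control level of 49.0 and 50.5 CPM (-0.03 ± 0.10 SE). Psmd10 had the lowest estimate of the chaperones, with 21.1 and 16.7 CPM in NAC, against 20.01 and 24.9 CPM in control (-0.24 ± 0.16 SE, edgeR adjusted p = 0.313).

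**Figure D3:**
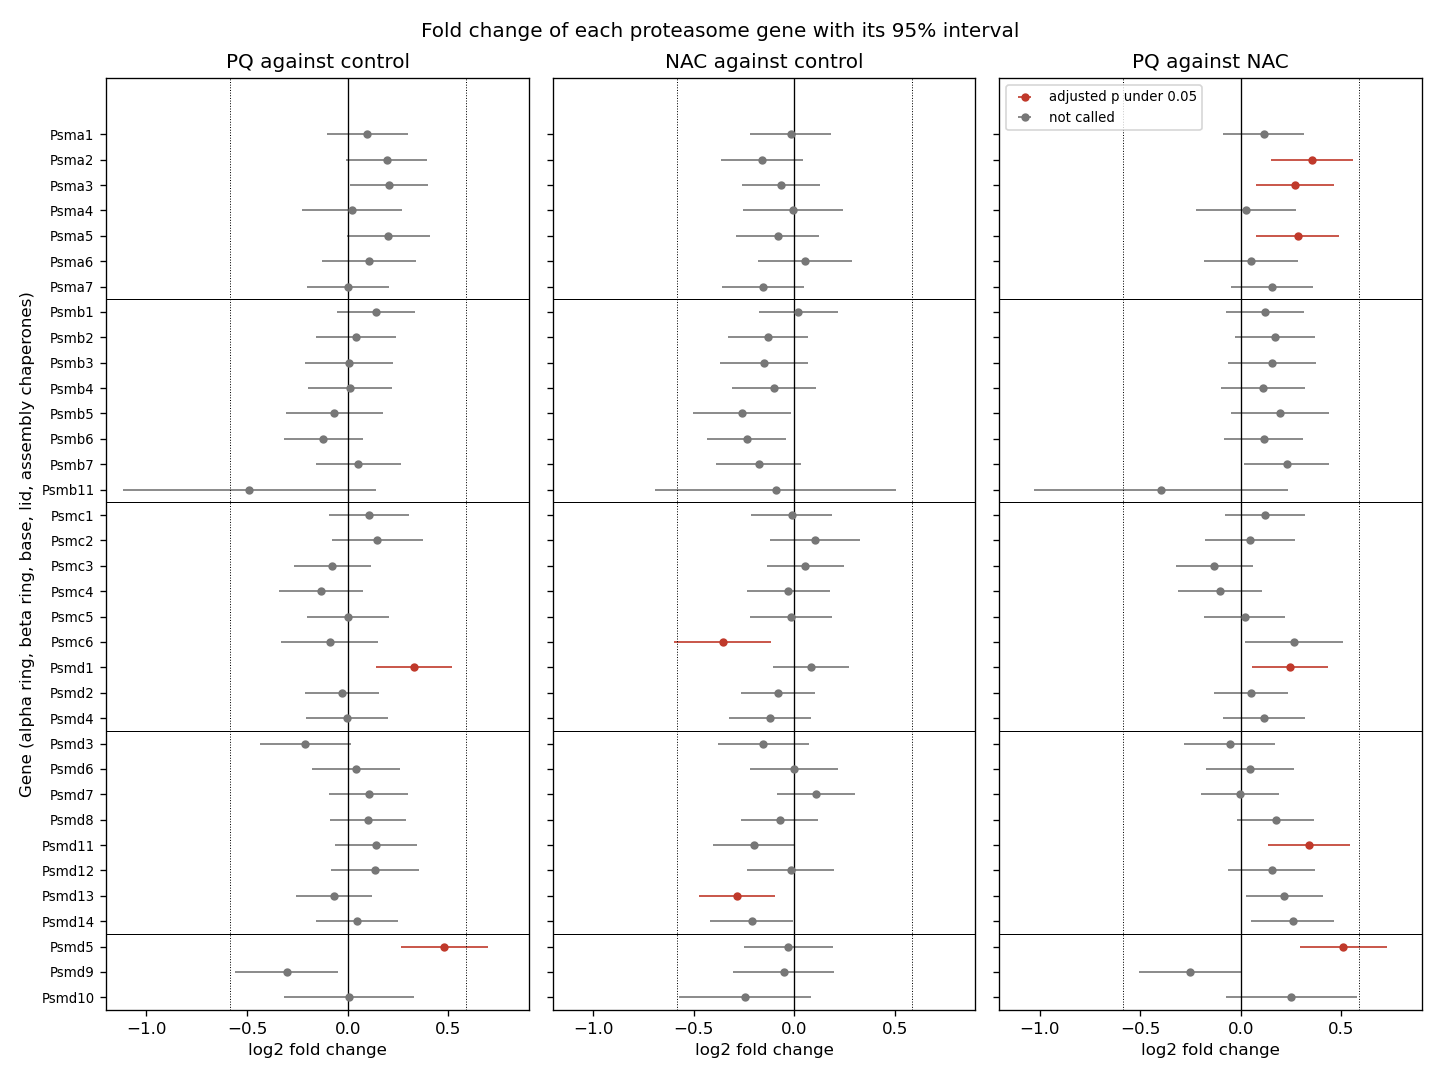
Log2 fold change (edgeR) of each of the 35 proteasome genes in the comparisons with control (PQ, then NAC) and between PQ and NAC, with approximate 95% intervals. Dotted lines mark 1.5-fold, and red points mark the 2, 2 and 6 genes with an adjusted p under 0.05.

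Set directly against each other, PQ cultures were higher than NAC cultures in 6 proteasome genes (Psma2, Psma3, Psma5, Psmd1, Psmd11 and Psmd5), and no proteasome gene was lower. Of all tested genes 15.5% were called higher and 15.1% lower in this comparison by edgeR, and 10 of the 35 (28.6%) had an unadjusted p under 0.05, all of them higher, beside 40.7% of all tested genes. The share of members called higher was close to that background. DESeq2 and limma on FPKM each called 5 higher and 0 lower. The median log2 fold change was 0.12 over the 35 genes, against 0.0011 over all genes, with 29 estimates above 0 and 6 below. PQ libraries were both above both NAC libraries for 21 of the 35 genes, beside 33.1% of all genes, and below for 3, beside 32.9%. The sum over the 35 genes was 9.63% higher in PQ, at 4879.7 and 4811.6 CPM, against 4511.4 and 4328.7 CPM in NAC. The count of 6 ran from 2 to 7 when 1 library was left out, and was 2 without NAC replicate 1 or PQ replicate 1 and 3 without NAC replicate 2 or PQ replicate 2.

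The alpha ring held 3 of the 6 genes. Psma2 had 157.0 and 157.6 CPM in PQ, against 119.2 and 127.0 CPM in NAC (1.28-fold, log2 fold change 0.35 ± 0.10 SE, edgeR adjusted p = 0.00896). Psma3 had 216.5 and 227.3 CPM in PQ, against 192.7 and 175.4 CPM in NAC (1.21-fold, edgeR adjusted p = 0.0337). Psma5 had 116.6 and 103.0 CPM in PQ, against 91.4 and 88.9 CPM in NAC (1.22-fold, edgeR adjusted p = 0.0356). None of the 3 overlapped between the groups. The other 4 alpha genes also had estimates above 0, down to 0.03 for Psma4, and none of these passed.

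Each alpha call was lost without some single libraries, while the estimates kept their sign. With 1 library left out, the log2 fold change stayed at 0.307 to 0.398 for Psma2, 0.202 to 0.339 for Psma3 and 0.189 to 0.37 for Psma5. Leaving out a PQ or NAC library leaves 1 in that group, so a lost call does not show that the difference rested on that library. Over the 14 alternatives the adjusted p ran from 0.00305 to 0.0936 for Psma2, from 0.0219 to 0.25 for Psma3 and from 0.0224 to 0.321 for Psma5. The call of Psma2 was lost without NAC replicate 1 (0.0936), PQ replicate 1 (0.0592) or PQ replicate 2 (0.065). That of Psma3 was lost without any 1 PQ or NAC library (0.0535 to 0.25). Psma5 lost its call without NAC replicate 1 (0.11), NAC replicate 2 (0.159) or PQ replicate 1 (0.321), and under DESeq2 (0.0584).

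In the regulatory particle, Psmd11 and Psmd1 were higher in PQ than in NAC. Psmd11, a lid subunit that braces the lid against the core, had 120.8 and 126.4 CPM in PQ, against 93.9 and 101.4 CPM in NAC (1.27-fold, log2 fold change 0.34 ± 0.10 SE, edgeR adjusted p = 0.0121). Its control libraries lay between, at 116.8 and 107.3 CPM. The call was lost without NAC replicate 1 (0.123) or PQ replicate 2 (0.109), in a range of 0.00517 to 0.123 over the 14 alternatives. Psmd1 had 358.4 and 389.4 CPM in PQ, against 319.2 and 311.9 CPM in NAC (1.19-fold, edgeR adjusted p = 0.0451, range 0.0335 to 0.31). It was above the threshold without any 1 PQ or NAC library (0.0804 to 0.31) and with scaling to library size (0.0573) or limma on FPKM (0.0705 and 0.072).

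Psmd5 gave the widest difference of the 6. It had 71.1 and 67.7 CPM in PQ, against 50.5 and 46.9 CPM in NAC (1.42-fold, log2 fold change 0.51 ± 0.10 SE, edgeR adjusted p = 0.000944). The adjusted p stayed between 0.000112 and 0.0182 over the 14 alternatives. Psmd9 again had the opposite estimate, with 27.5 and 26.3 CPM in PQ, against 31.9 and 32.2 CPM in NAC (-0.25 ± 0.12 SE, edgeR adjusted p = 0.127).

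The beta ring had no call between PQ and NAC although 7 of its 8 estimates were above 0, with a class median of 0.14. Psmb7 had the highest, 0.23 ± 0.10 SE, with 158.0 and 150.4 CPM in PQ, against 130.8 and 132.3 CPM in NAC (edgeR adjusted p = 0.0939). For Psmb5 and Psmb6 the PQ libraries were also both above the NAC libraries, with adjusted p = 0.226 and 0.394 in edgeR. Psmd14 (0.26 ± 0.10 SE, edgeR adjusted p = 0.0539), Psmc6 (0.27 ± 0.12 SE, edgeR adjusted p = 0.0915) and Psmd13 (0.22 ± 0.09 SE, edgeR adjusted p = 0.0802) missed the threshold. The base had the smallest class median, 0.05, and the lid had 0.16.

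**Figure D4:**
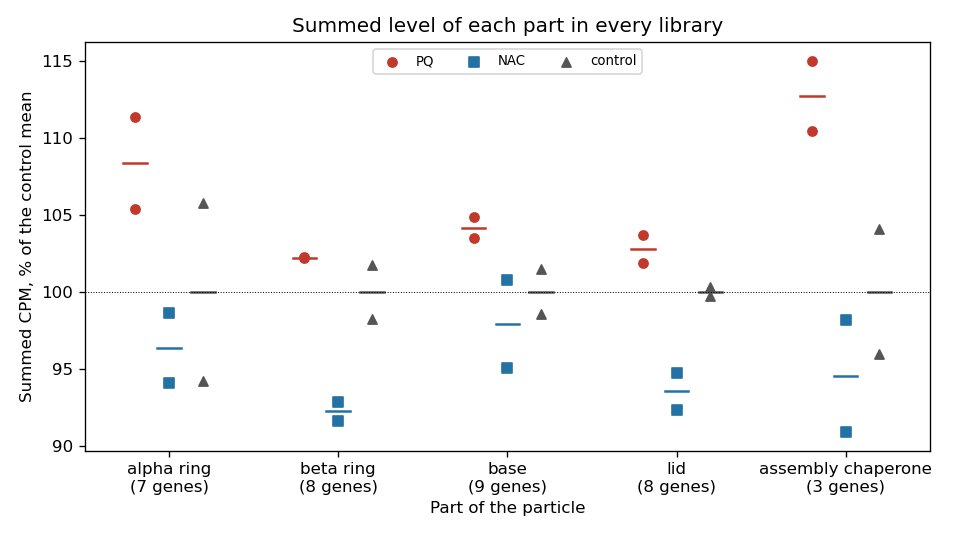
Summed CPM of the genes of each proteasome class by library, for PQ, NAC and control, as a percentage of the mean of the control libraries, with a line at each group's mean. In the beta ring and the lid the 2 NAC libraries lie below the other 4, at 709.8 and 700.2 CPM and at 1096 and 1069 CPM.

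Replicates of the proteasome genes were close. The median absolute log2 difference between the replicates of a group was 0.0707 in PQ, 0.093 in NAC and 0.0948 in control, against 0.13, 0.136 and 0.158 over all genes. The proteasome genes also had higher levels, with a median of 94.7 FPKM against 11.1 over the genes tested. The part of that level in their closeness, and in the shares of estimates under 1.25-fold, was not tested. Psmb11 varied most in PQ (0.79) and NAC (0.82), and in control Psma4 did (0.44), with 229.1 CPM in replicate 2 and 168.9 in replicate 1. In control 25 of the 35 genes were higher in replicate 2, and in NAC 13. Data were simulated at the depth of these libraries, from the control means and with a spread set by level alone. On them the test recovered 18% of 1.25-fold and 68% of 1.5-fold differences between PQ and control. For NAC against control it found 22% and 80%, and for PQ against NAC 10% and 74%. The simulated data held fewer changed genes than were called here, which makes the threshold on adjusted p harder to pass. The median SE in PQ against control was 0.097 over the 35 genes, against 0.131 over all genes tested. The share of 1.25-fold changes missed among the proteasome genes is therefore not given by these values. A gene that did not pass is not shown to be unchanged.

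Genes that work with the proteasome were read from 9 lists, with 45 genes in all, of which 44 were tested. In PQ against control 7 of the 44 were higher and 0 lower, beside 9.07% and 8.8% of all tested genes. In NAC against control 4 were higher and 1 lower, beside 8.65% and 9.26%. In PQ against NAC 5 were higher and 3 lower, beside 15.5% and 15.1%. At an unadjusted p under 0.05 in edgeR, 10 were higher and 2 lower with PQ, and 8 and 6 with NAC, each against control. In PQ against NAC these were 8 and 5. The shares of all tested genes, in either direction, were 30.6%, 30.8% and 40.7%. Of the 20 single calls in these lists and the 10 calls of proteasome genes, 4 held with every library left out in turn: Psmd5 in both its comparisons, and Psmb8 and Psme4 in PQ against NAC.

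The ubiquitin and E1 list, with 4 genes, had a call in Uba1. Ubb, a polyubiquitin gene with non-whole expected counts in 6 libraries, had 893.5 and 1004 CPM in PQ and 948.1 and 974.1 CPM in NAC, against 818.9 and 820.2 CPM in control, and did not pass (edgeR adjusted p = 0.113 with PQ and 0.0833 with NAC). Uba1, the enzyme that starts ubiquitin transfer, was 1.2-fold lower in NAC than in control, with 452.7 and 449.6 CPM, against 559.1 and 521.5 CPM (edgeR adjusted p = 0.0477). That call was lost without any 1 library (0.0553 to 0.207), in a range of 0.0296 to 0.207. In PQ it had 519.4 and 546.7 CPM, 1.18-fold above NAC (edgeR adjusted p = 0.0453), which was lost without any 1 PQ or NAC library (0.107 to 0.25), in a range of 0.0311 to 0.25. Rps27a, which encodes ubiquitin fused to a ribosomal protein, did not pass.

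Among the activators and the inhibitor that bind the core in place of the cap, 2 of 5 were higher in PQ than in control. Psme1 had 48.1 and 45.5 CPM in PQ, against 34.7 and 36.4 CPM in control (1.32-fold, edgeR adjusted p = 0.0186). Psme2, which forms the same activator ring with Psme1, had 32.7 and 33.9 CPM in PQ, against 24.6 and 26.0 CPM in control (1.32-fold, edgeR adjusted p = 0.0404). Psme1 lost its call without PQ replicate 1 (0.12), PQ replicate 2 (0.0828) or control replicate 1 (0.0682), in a range of 0.0106 to 0.12. Psme2 lost it without any 1 PQ or control library (0.0641 to 0.223), in a range of 0.0248 to 0.223.

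Psme1 and Psme4 were the regulators that passed in PQ against NAC. Psme4 (PA200) had 233.8 and 208.0 CPM in PQ, against 166.7 and 156.5 CPM in NAC (1.37-fold, log2 fold change 0.45 ± 0.10 SE, edgeR adjusted p = 0.00158). Its control libraries lay between, at 194.3 and 180.0 CPM. Psme1 had 34.4 and 35.9 CPM in NAC and was 1.33-fold higher in PQ (edgeR adjusted p = 0.00834, range 0.00404 to 0.0782). That was lost without NAC replicate 1 (0.0782) or PQ replicate 1 (0.0764). Psme3 and the inhibitor Psmf1 did not pass in any comparison.

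The immunoproteasome subunits, which replace the catalytic subunits after interferon, were low. Psmb8, the counterpart of Psmb5, had 13.6 and 12.1 CPM in PQ, against 7.42 and 7.92 CPM in NAC. It was 1.67-fold higher in PQ than in NAC (log2 fold change 0.74 ± 0.17 SE, edgeR adjusted p = 0.00303), with control between, at 10.7 and 10.5 CPM. Psmb10 had 21.8 and 29.6 CPM in NAC, against 20.2 and 16.6 CPM in control (1.39-fold, edgeR adjusted p = 0.0497). Over the 14 alternatives its adjusted p ran from 0.0127 to 0.456, highest without NAC replicate 2, and it was also lost without control replicate 2 (0.22), PQ replicate 1 (0.0589) or PQ replicate 2 (0.0636). Psmb9 had 3.01 to 4.16 CPM in all 6 libraries and did not pass.

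Of the 2 subunits without a Psm symbol, the ubiquitin receptor Adrm1 was higher in PQ than in control, with 97.3 and 112.9 CPM, against 85.4 and 81.5 CPM (1.26-fold, edgeR adjusted p = 0.0299). That was lost without PQ replicate 2 (0.357) or control replicate 2 (0.108), in a range of 0.0173 to 0.357. Sem1 did not pass. None of the 5 assembly factors of the core passed in any comparison. Pomp, which guides the joining of the beta rings, had 89.3 CPM in each PQ library, against 69.3 and 77.0 CPM in control (edgeR adjusted p = 0.0598). Psmg2 had 25.6 and 20.9 CPM in PQ, against 31.7 and 27.4 CPM in NAC (edgeR adjusted p = 0.0653).

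Of the 6 associated enzymes and adaptors, none passed against control. Uchl5, a deubiquitinase that docks on Adrm1, had 60.8 and 60.3 CPM in PQ, against 87.0 and 66.6 CPM in NAC (1.27-fold lower, edgeR adjusted p = 0.0359). That was lost without NAC replicate 1 (0.508), PQ replicate 1 (0.127) or PQ replicate 2 (0.152), in a range of 0.00542 to 0.508. Among the 5 shuttle factors, which carry ubiquitin-tagged proteins to the proteasome, Ubqln4 passed in PQ against NAC and none passed against control. Ubqln4 had 91.6 and 106.1 CPM in PQ, against 124.4 and 129.4 CPM in NAC (1.28-fold lower, edgeR adjusted p = 0.0116, range 0.00398 to 0.174), and lost the call without NAC replicate 2 (0.0712) or PQ replicate 1 (0.174).

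Of the 6 genes of the p97 unfoldase and its cofactors, Nploc4 was higher in PQ than in control, with 111.9 and 112.4 CPM, against 90.5 and 90.6 CPM (1.24-fold, edgeR adjusted p = 0.0278). The call was lost without any 1 PQ or control library (0.0698 to 0.171), in a range of 0.0159 to 0.171. Vcp, the unfoldase itself, had 525.6 and 541.7 CPM in PQ and 569.8 and 554.5 CPM in NAC, against 540.7 and 517.1 CPM in control, and did not pass.

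The transcription and processing list held the factors that can set proteasome levels. Nfe2l1 did not pass, with 341.0 and 364.1 CPM in PQ and 294.1 and 293.6 CPM in NAC, against 313.6 and 382.3 CPM in control. Nfe2l2 was 1.25-fold higher in PQ than in NAC, with 473.1 and 470.0 CPM, against 379.0 and 378.6 CPM (edgeR adjusted p = 0.0118), and lost the call without any 1 PQ or NAC library (0.0654 to 0.0778), in a range of 0.00468 to 0.0778. Its RNA level says nothing of its protein, which is mainly controlled by degradation. Ngly1, which removes sugar chains from Nfe2l1 and so helps activate it, had 13.1 and 12.1 CPM in PQ and 19.3 and 16.7 CPM in NAC, against 10.9 and 14.4 CPM in control. It was higher in NAC than in control (1.42-fold, edgeR adjusted p = 0.0424) and lower in PQ than in NAC (1.43-fold, edgeR adjusted p = 0.0245). The first call was lost without any 1 library but control replicate 2 (0.054 to 0.268), in a range of 0.0114 to 0.268. The other was lost without NAC replicate 1 (0.175), PQ replicate 1 (0.0669) or PQ replicate 2 (0.152), in a range of 0.0089 to 0.175.

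Bach1 and Mafk were higher with both PQ and NAC than in control. Bach1, a repressor at antioxidant response elements, had 46.3 and 48.5 CPM in PQ and 47.9 and 46.8 CPM in NAC, against 35.6 and 35.5 CPM in control. That was 1.33-fold in either comparison (edgeR adjusted p = 0.0124 with PQ and 0.0115 with NAC). The PQ call was lost without PQ replicate 2 (0.128), in a range of 0.00864 to 0.128. The NAC call was lost without NAC replicate 1 (0.0833) or NAC replicate 2 (0.0514), in a range of 0.00602 to 0.0833. Mafk, a small Maf partner of these factors, had 7.39 and 9.69 CPM in PQ and 7.51 and 8.42 CPM in NAC, against 5.36 and 4.26 CPM in control (edgeR adjusted p = 0.0146 with PQ and 0.0312 with NAC). The PQ call of Mafk was lost without PQ replicate 2 (0.21), control replicate 2 (0.095) and under DESeq2 (0.0635), in a range of 0.0018 to 0.21. Its NAC call was lost without NAC replicate 1 (0.0678), NAC replicate 2 (0.155) or control replicate 2 (0.165) and under DESeq2 (0.13), in a range of 0.00892 to 0.165. Zfand5, which binds and activates the proteasome, was 1.34-fold higher in PQ than in control, with 186.6 and 191.3 CPM, against 121.1 and 160.8 CPM (edgeR adjusted p = 0.0143). It lost the call without PQ replicate 1 (0.0592), PQ replicate 2 (0.116) or control replicate 1 (0.168), in a range of 0.000285 to 0.168.

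**Figure D5:**
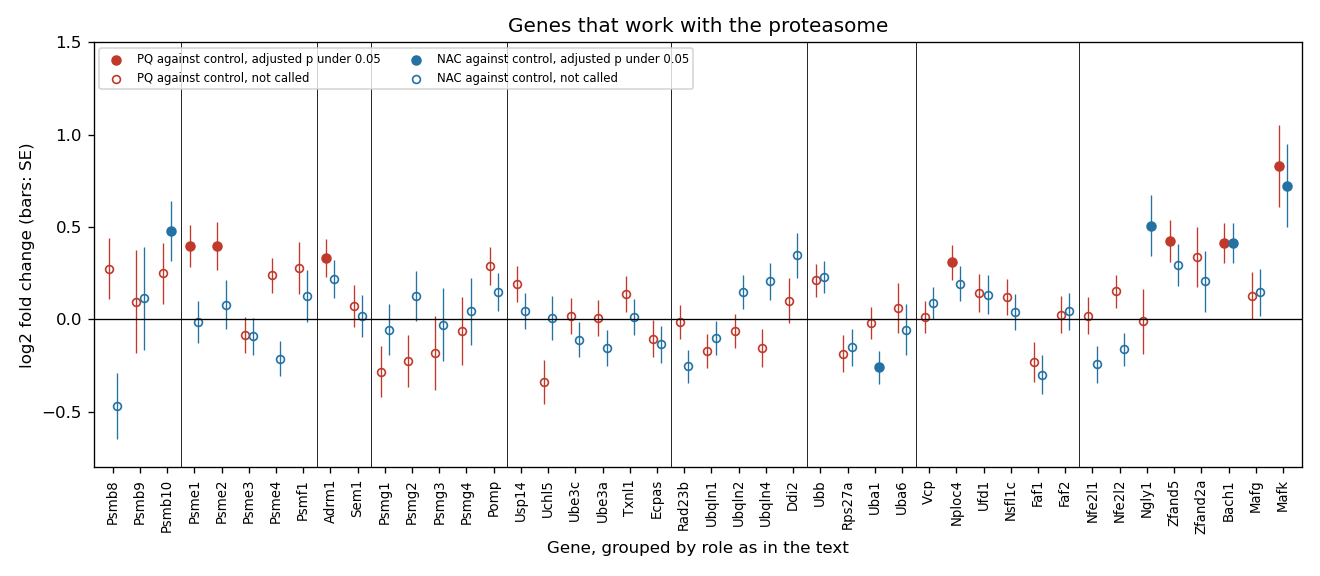
Log2 fold change (edgeR) with its SE as a bar, for PQ against control and NAC against control, of the tested genes that work with the proteasome, grouped by list. Filled points have an adjusted p under 0.05, and Mafk lies highest with PQ, at 0.83.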

How the data were processed

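RNA of 6 libraries (PQ, NAC and control, 2 each) was sequenced on a BGISEQ-500, per the labels' protocols. The tools RSEM, Bowtie2 2.2.5 and HISAT2 2.0.4 and the build mm10 are named, with no role, per the submitters' processing notes. The deposited tables give expected counts and FPKM per gene, per the file headers, and 20.9% to 21.4% of the expected counts are not whole. Genes without a name held 0.0724% to 0.0789% of the counts. Chi-square per degree of freedom was 4.11 to 6.92 between libraries within a group and 14.97 to 37.93 across groups. These values cannot tell separate cultures from repeat preparations of 1 culture. Each library was counted as 1 replicate. Whether counting used the strand is not given in the sources used here.

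Rounded expected counts went into edgeR 4.0.16 (R 4.3.3): filterByExpr (minimum count 10, total 15), TMM scaling, quasi-likelihood fitting of 1 mean for each group across 6 libraries (3 residual degrees of freedom), and Benjamini-Hochberg adjustment over 12813 genes, at a threshold of 0.05. CPM uses the TMM factors (0.978 to 1.02). The SE is the absolute log2 fold change over the square root of F, and 95% intervals are approximate, unadjusted and from that SE. In simulated data with 200 changed genes, the false share among calls was 4.73% in PQ against control and 5.66% in NAC against control (12566 genes tested each) and 4.73% in PQ against NAC (12569 tested). Alternatives were DESeq2 1.42.0, limma 3.58.1 on log2(FPKM + 0.1) and log2(FPKM + 1), other scaling and filters, only the groups compared, leaving out each library, and a replicate block added after seeing the data, which is not among the 14 alternatives counted in the results. Where 1 library of a group remains, it is assumed to vary like the other groups.

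Genes and lists were chosen with earlier results of these data known. Values by library are given for Psmb5, Psmb6 and Psmb7, for the 5 members with the smallest p in each comparison, and for the highest and lowest log2 fold change of each class against control; in each list, for up to 4 genes with the smallest p and all called where at most 5. Overlaps of exons are from GENCODE M21. Some genes of the lists are not reported here. Python 3.11.15, pandas 2.3.3 and matplotlib 3.10.9 were used.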

Additional observations from a re-analysis of the deposited data

How the results depend on the processing

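The titles number the libraries 8 to 13, which gives each group 1 library in 8 to 10 and 1 in 11 to 13, and no label says that a run of numbers was handled together. A replicate block for the 2 runs was added after seeing the data, with 2 residual degrees of freedom. It called 2 members higher in PQ against control (Psmd5 and Psmd1), 0 lower in NAC against control and 3 higher in PQ against NAC (Psma2, Psmd11 and Psmd5), and 1842, 1894 and 3485 of all genes in these comparisons, and kept 17 of the 30 single-gene calls. Over genes, replicate differences correlated at 0.139 between PQ and NAC, -0.0953 between PQ and control and -0.19 between NAC and control. With 1 such difference in each group, these values cannot show whether the runs are pairs. The main fit has no term for the runs.

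No direction of a single proteasome gene's call, and no sign of a median over the members, turned under any of the 14 alternatives; the cause of each change below was not tested. Of the 30 single-gene calls, 4 held without any 1 library. In the simulated data most 1.25-fold changes were missed. The share missed among the proteasome genes is not given by those data, and several calls here were near 1.25-fold.

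The count of members lower in NAC against control was 2, and 0 with scaling to library size or with limma on FPKM at either pseudocount, 1 with only the groups compared, and 0 to 1 with 1 library left out (without any of the 6 the call of Psmd13 was lost). Members higher in PQ against control were 2, and 1 to 2 with 1 library left out. In PQ against NAC they were 6, with 2 to 7 when 1 library was left out, 7 without the filter on low counts and 8 with only the groups compared. All genes called in PQ against control were 2289, at most 2617 (without the filter) and, with 1 library left out, 829 to 2181, lowest without PQ replicate 2 and 1477 without PQ replicate 1. In NAC against control they were 2294, at most 2633 (without the filter) and, with 1 library left out, 1338 to 2157, 1338 without NAC replicate 1 and 1523 without NAC replicate 2. In PQ against NAC they were 3926, 4441 with only the groups compared and, with 1 library left out, 2427 to 4442, 2427 without PQ replicate 2 and 2537 without NAC replicate 1. Among the list genes, calls were also lost under DESeq2 (Psme2 with PQ, Psmb10, Ngly1 in both comparisons, Uchl5) and with limma on FPKM (Psmb10, Uba1 in both comparisons, Uchl5, Ngly1 with NAC at the smaller pseudocount). Library size scaling also ended both calls of Uba1. The fit of only the groups compared ended those of Psmb10, Ngly1 and Uba1 with NAC, and DESeq2 size factors that of Psmb10. Psmc6 passed in PQ against NAC without the filter on low counts, and Psmc6 and Psmd14 did so with only the groups compared.

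Medians moved under library size scaling, limma on log2(FPKM + 0.1) and limma on log2(FPKM + 1), in that order. For NAC against control they were -0.03203, -0.0316 and -0.0313 over all members, 0.03028, 0.0312 and 0.03087 in the base (other sign than the -0.02 above), -0.09233, -0.09031 and -0.08951 in the beta ring, and -0.06655, -0.06496 and -0.06412 in the lid. For PQ against control they were 0.03954, 0.0402 and 0.03982 in the beta ring and 0.1036, 0.1033 and 0.1024 in the lid. For PQ against NAC they were 0.1472, 0.1492 and 0.1478 in the lid. Library size scaling moved the median of all genes to 0.045 with NAC and 0.029 with PQ.

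With 1 library left out, the median over the members was 0.00128 to 0.0886 in PQ against control and 0.072 to 0.16 in PQ against NAC. Class medians in PQ against control were 0.0151 to 0.216 in the alpha ring, -0.0582 to 0.0236 in the beta ring, 0.0393 to 0.0987 in the lid and -0.146 to 0.174 in the chaperones. In NAC against control they were -0.102 to 0.00103 in the alpha ring (above 0 without NAC replicate 2 alone), -0.0685 to 0.0587 in the base, -0.184 to -0.135 in the beta ring and -0.118 to -0.0833 in the lid. In PQ against NAC they were 0.0914 to 0.209 in the alpha ring, 0.0393 to 0.172 in the base, 0.127 to 0.162 in the beta ring, 0.0952 to 0.185 in the lid and 0.0919 to 0.429 in the chaperones.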
